A study of Mus musculus with 22 samples.

Results

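Expression of 10 genes of the circadian clock was followed in the dentate gyrus of mice that carried or lacked the transcription factor SRF in excitatory neurons, 6 h after kainic acid-induced seizures or saline. The genes were the period genes Per1, Per2 and Per3, the cryptochromes Cry1 and Cry2, Arntl (Bmal1), Nr1d1 (Rev-erb alpha) and the PAR bZIP factors Dbp, Tef and Hlf. They were taken by gene symbol from the annotation of the array, which gave 15 probes for the 10 genes among 46237 probes for 20295 named genes, and each gene is described by its probe with the highest mean signal. All 22 mice were adult males that carried loxP-flanked Srf alleles (Srf f/f) and had received tamoxifen. CTR mice (Srf f/f) had no Cre recombinase, and KO littermates (Srf f/f;CaMKCreERT2) carried a tamoxifen-inducible Cre driven by the CaMKIIα promoter, which is active in excitatory forebrain neurons. By this design glia, vessels and inhibitory neurons keep the gene, but which cells kept Srf was not measured on these arrays. Kainic acid (KA), an agonist of glutamate receptors, was given intraperitoneally at 35 to 50 mg/kg, and the mice taken had reached class 5 on a modified Racine scale of seizure severity. The 4 groups were CTR saline (n = 6), CTR KA (n = 5), KO saline (n = 6) and KO KA (n = 5), with 1 Illumina MouseWG-6 BeadChip array for each mouse. The hour of the day at which the mice were killed is not given in the sources used here, and whether it differed between the groups cannot be told from the labels.

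In the mammalian clock, ARNTL pairs with CLOCK, or with its paralog NPAS2, and switches on genes that carry E-box elements, among them the Per and Cry genes. PER and CRY proteins return to the nucleus and inhibit that pair, which closes the main loop. A side loop runs through NR1D1, which represses Arntl at ROR elements, and the PAR bZIP factors carry the rhythm to output genes through D-boxes. Per1 and Per2 are also known as activity-induced genes, because their promoters answer calcium and cAMP signals through CREB, and in forebrain neurons PAR bZIP factors control enzymes of neurotransmitter metabolism.

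To look for elements of this kind, promoters of the members were read from RefSeq (GRCm38.p6, 250 bases before to 50 bases after each start), where 12 promoters of 9 members are listed. No promoter of Per2 is listed there, so Per2 was not searched. Exact matches were sought on both strands for the E-box CACGTG, the cAMP response element TGACGTCA and its core TGACG, the D-box (TTATGTAA or TTACGTAA), the ROR element in 2 spellings and the CArG box, the SRF binding element (CC, 6 letters A or T, GG). The core lies inside the full cAMP response element, so those matches overlap. Windows of 30 bases around the matches are printed on the gene's strand with the match in capitals.
Per1 E-box, chr11:69098771-69098800, plus strand: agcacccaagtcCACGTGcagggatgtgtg
Cry1 E-box, chr10:85185097-85185126, minus strand: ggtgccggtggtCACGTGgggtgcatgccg
Tef E-box, chr15:81802534-81802563, plus strand: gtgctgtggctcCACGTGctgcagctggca
Tef E-box of a further start, chr15:81811264-81811293, plus strand: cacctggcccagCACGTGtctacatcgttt
Per3 D-box, chr4:151044852-151044881, minus strand: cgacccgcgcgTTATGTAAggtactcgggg
Per3 further D-box, chr4:151044805-151044834, minus strand: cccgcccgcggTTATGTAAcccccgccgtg
Arntl ROR element, chr7:113207528-113207557, plus strand: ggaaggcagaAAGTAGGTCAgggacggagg
Hlf cAMP response element, chr11:90390908-90390937, minus strand: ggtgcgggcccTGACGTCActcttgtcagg

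Of all 32851 promoters of that length, 7.15% held the E-box, 1.79% the full cAMP response element, 20.8% its core, 1.06% the D-box, 0.116% the ROR element and 1.63% a CArG box. Of the 12 member promoters, 4 held the E-box, those of Per1, Cry1 and Tef. The full cAMP response element, the D-box and the ROR element were each in 1, of Hlf, Per3 and Arntl in that order. The core was found in 5 member promoters, of Per1, Cry1, Cry2 and Hlf. No listed member promoter held a CArG box, which says only that these letters are not in these windows, and nothing about Per2. A match is a run of letters and does not show that a factor binds there.

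The arrays were alike in scale. Log2 signals ran from 6.69 to 16.12, array medians lay between 7.86 and 7.91, and no 2 arrays held the same values. The deleted gene followed its label, since Srf (ILMN_2988299) had a mean log2 signal of 12.45 ± 0.12 (SD, n = 6) in CTR saline, 12.06 ± 0.20 (n = 5) in CTR KA, 11.41 ± 0.17 (n = 6) in KO saline and 11.23 ± 0.20 (n = 5) in KO KA mice, and KO and CTR mice did not overlap. Among granule cell markers, Prox1 and C1ql2 were bright (94.8% and 99.3% of probes lower in mean signal). Calb1 and Stxbp6 were dim (5.21% and 18.9%), and Plk5 and Lct were not measured. Most markers of interneurons and glia were present, but Lhx6 (49.1%), Olig2 (42.1%) and Itgam (32.4%) were dim. Because whole tissue was profiled, fewer cells of a type and less RNA per cell cannot be told apart. Of the arrays, CTR saline 6, KO saline 6 and KO saline 5 had the lowest mean signals (8.66, 8.66 and 8.67, against 8.69 to 8.75 for the others), and results that rest on them are given with and without them. Cry1 and Hlf lay near the floor of the array, with 4.31% and 47.7% of probes lower in mean signal, and little can be read from their values. Among the others, between 63.0% (Per3) and 95.6% (Dbp) of probes were dimmer.

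After KA, the clock genes of CTR mice moved in both directions. A gene was counted as changed when its adjusted p was under 0.05 in limma's test over all probes and the difference exceeded 1.5-fold. Per1, Per2 and Arntl rose, which is 3 of 10 members against 9.15% of all genes, and Dbp, Tef and Per3 fell, which is 3 of 10 against 8.98%. In 7 members the CTR KA and CTR saline mice did not overlap, compared with 18.3% of all genes. In KO mice, Per2 and Arntl rose (2 of 10, against 4.33% of all genes) and Dbp, Nr1d1 and Per3 fell (3 of 10, against 4.5%), and the groups did not overlap in 5 members, against 15% of genes. The median absolute log2 difference of the members was 0.87 in CTR and 0.68 in KO mice, whereas over all genes it was 0.15 and 0.12. All genes here include dim ones, and no background of like signal was taken. Both genotypes are compared here with their own saline group.

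**Figure D1:**
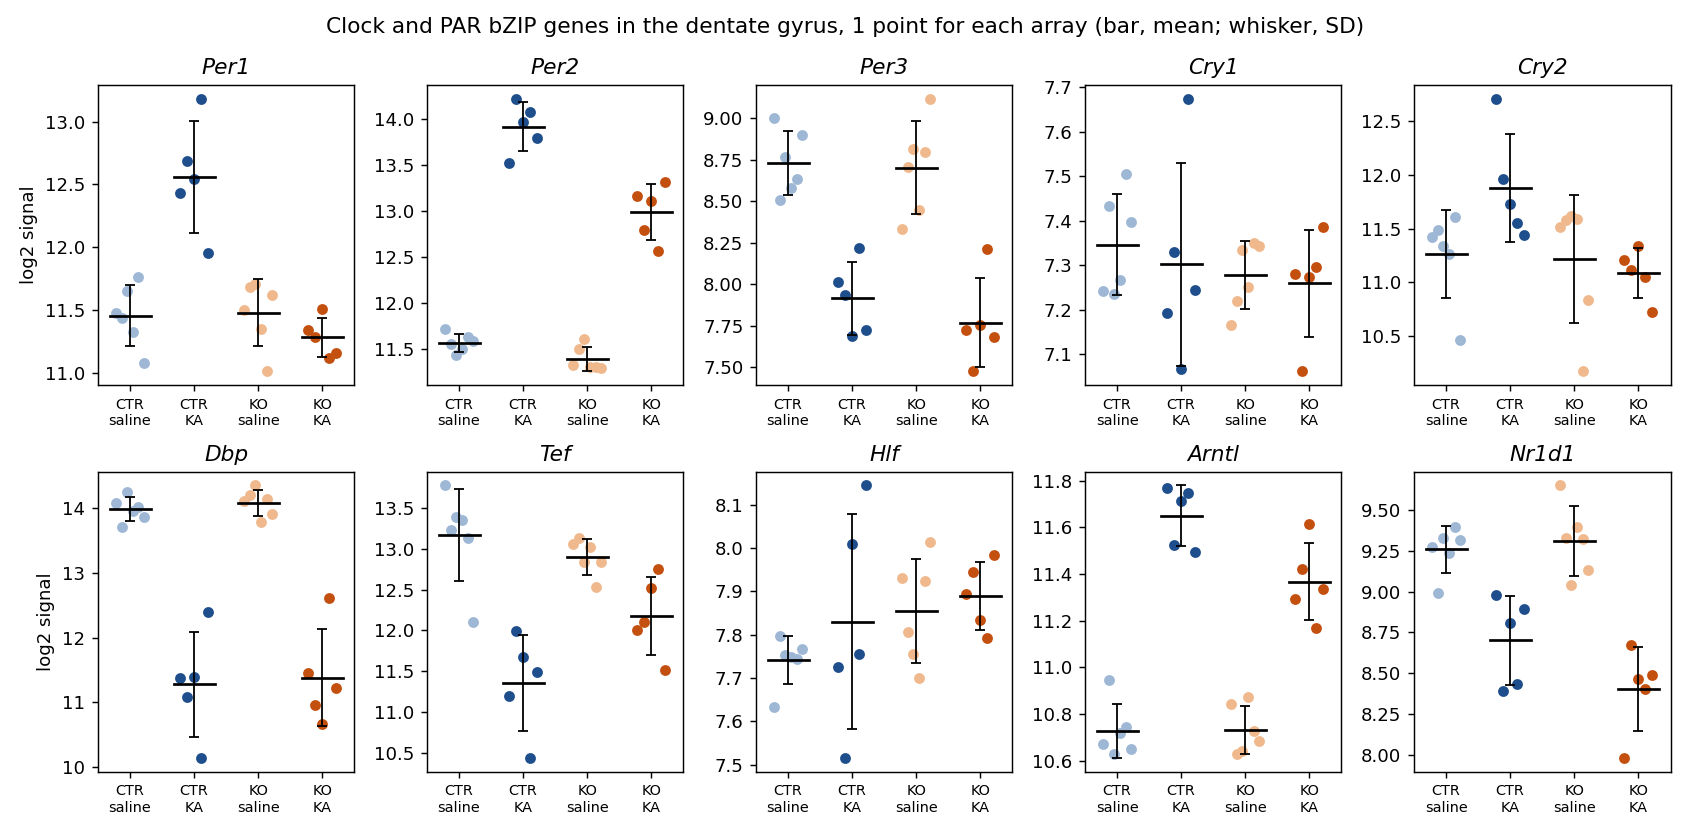
Log2 signal (y axis, a separate range in each panel) of the 10 clock and PAR bZIP genes in each of the 22 mice, by group (x axis), with the mean as a bar and the SD as whiskers. The CTR KA mice stand above all others for Per1 (11.95 to 13.18), whereas Dbp was low in the KA mice of both genotypes (10.13 to 12.61) and high in all saline mice (13.72 to 14.36).

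Per1, a repressor of the core loop, responded to KA in CTR mice and showed no detectable rise in KO mice. After saline its log2 signal had a lowest, median and highest value of 11.08, 11.46 and 11.76 in CTR mice and of 11.01, 11.56 and 11.71 in KO mice. The CTR KA mice read 12.43, 12.69, 12.54, 13.18 and 11.95, and the KO KA mice 11.34, 11.29, 11.51, 11.12 and 11.16. Every CTR KA mouse thus stood above every mouse of the 3 other groups, and the KO KA mice lay within the range of the saline mice. Per1 rose by a log2 difference of 1.10 in CTR mice (2.15-fold, SE 0.16, adjusted p = 1.2e-05). In KO mice the difference was −0.20 (95% interval −0.53 to 0.14, adjusted p = 0.57). The genotypes did not differ detectably after saline (0.02, interval −0.30 to 0.35), but after KA the KO mice were lower by a log2 difference of −1.28 (2.42-fold, SE 0.17, adjusted p = 1.8e-05). The interaction, the KO response minus the CTR response, was −1.30 (SE 0.23, adjusted p = 0.0013).

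Per2, the paralog of Per1, rose in both genotypes. Its saline signals were narrow, with a lowest, median and highest value of 11.44, 11.58 and 11.71 in CTR and of 11.30, 11.32 and 11.61 in KO mice. After KA the CTR mice read 13.52, 14.22, 13.96, 14.07 and 13.79, and the KO mice 13.16, 12.80, 13.10, 12.56 and 13.32. All KA mice were above all saline mice, and all CTR KA mice were above all KO KA mice. The log2 difference to saline was 2.34 in CTR mice (5.06-fold, SE 0.12, adjusted p = 1.4e-12) and 1.59 in KO mice (3.02-fold, SE 0.12, adjusted p = 3.2e-09). After KA, KO mice were lower by −0.92 (1.90-fold, SE 0.13, adjusted p = 2.5e-05). The interaction of −0.75 had an adjusted p of 0.011 and missed the threshold of 0.01 set for interactions. It passed without CTR KA 1 (−0.84, adjusted p = 0.0024) or without KO KA 5 (−0.83, adjusted p = 0.0045). With normexp on the deposited signals the interaction was weaker and did not pass (−0.60, adjusted p = 0.081).

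Per3, the period gene with the least known part in keeping the rhythm, went down. Saline signals ranged from 8.51 to 9.0 in CTR (median 8.70) and from 8.33 to 9.12 in KO mice (median 8.75). The CTR KA mice read 8.01, 7.94, 7.69, 8.22 and 7.72, and the KO KA mice 7.72, 7.47, 7.75, 8.21 and 7.68. Neither KA group overlapped with its saline group. Per3 fell by 0.82 log2 units in CTR mice (1.76-fold, SE 0.14, adjusted p = 6.7e-05) and by 0.93 in KO mice (1.91-fold, SE 0.14, adjusted p = 4.1e-05). The genotypes did not differ detectably after KA (−0.15, interval −0.45 to 0.15). The 3 period genes thus behaved differently in the same mice, since Per1 rose in CTR mice, Per2 rose in both genotypes and Per3 fell in both.

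Cry2, the cryptochrome that was well above the floor, did not pass the tests, although its KA groups separated by genotype. Its CTR KA mice read 12.71, 11.96, 11.73, 11.55 and 11.44, and its KO KA mice 11.20, 11.12, 11.34, 11.05 and 10.72. The lowest CTR KA mouse was thus above the highest KO KA mouse, but the saline mice spread over both ranges, from 10.46 to 11.61 in CTR (median 11.38) and from 10.17 to 11.62 in KO (median 11.54). After KA the KO mice differed from CTR mice by −0.80 (SE 0.27, adjusted p = 0.061), and the KA difference was 0.61 in CTR (adjusted p = 0.09) and −0.13 in KO mice (adjusted p = 0.85). The lowest saline signals belonged to CTR saline 6 (10.46), KO saline 5 (10.17) and KO saline 6 (10.83), the 3 arrays of lowest mean signal. No saline array enters the genotype difference after KA, so leaving these 3 arrays out altered only the estimate of the spread, and the adjusted p became 0.0039. It also passed without CTR saline 6 alone (adjusted p = 0.039), without KO saline 5 (adjusted p = 0.023) or without CTR KA 5 (−0.90, adjusted p = 0.038), and without KO saline 5 the KA difference in CTR mice passed as well (0.61, adjusted p = 0.038). With only the KA groups in the fit, which holds no saline array, the genotype difference after KA did not pass (−0.80, adjusted p = 0.066). Nor did it pass with normexp on the deposited signals (−0.70, adjusted p = 0.078). Cry1 had signals between 7.06 and 7.67 in all mice, and no comparison passed.

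**Figure D2:**
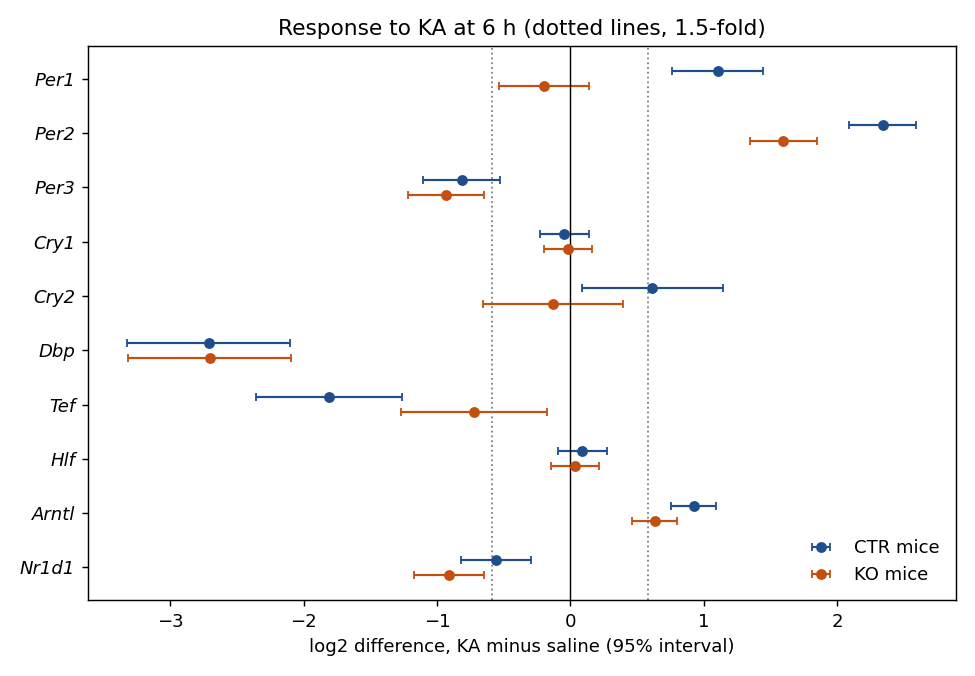
Response of each member to KA as the log2 difference between KA and saline mice (x axis), for CTR and KO mice, with 95% intervals of the limma fit. Dbp has the same value in both genotypes (−2.71), Per1 has 1.10 in CTR and −0.20 in KO mice, and the intervals of Cry1 and Hlf include 0.

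Arntl, the activator of the loop, rose in both genotypes. Its saline signals lay between 10.63 and 10.95 in CTR (median 10.70) and between 10.63 and 10.87 in KO mice (median 10.71). The CTR KA mice read 11.77, 11.53, 11.71, 11.75 and 11.49, and the KO KA mice 11.29, 11.42, 11.61, 11.17 and 11.34, all of them above every saline mouse. The rise was 0.92 in CTR (1.90-fold, SE 0.08, adjusted p = 7.3e-09) and 0.63 in KO mice (1.55-fold, SE 0.08, adjusted p = 6.8e-06), and the latter dropped under 1.5-fold without KO KA 3 (0.57, adjusted p = 3.5e-05). The KO KA mice were lower than the CTR KA mice by −0.28 (SE 0.09, adjusted p = 0.035), a difference of 1.22-fold that stayed under the fold threshold, and the interaction had an adjusted p of 0.20.

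Nr1d1, the nuclear receptor that represses Arntl, had lower values after KA. In the saline mice its signal ran from 8.99 to 9.40 in CTR (median 9.30) and from 9.04 to 9.65 in KO (median 9.32). After KA the values were 8.98, 8.39, 8.81, 8.44 and 8.89 in CTR and 7.98, 8.68, 8.46, 8.40 and 8.49 in KO mice. The groups did not overlap in either genotype, though in CTR mice the margin was small (8.98 against 8.99). Nr1d1 fell in KO mice (−0.91, 1.88-fold, SE 0.13, adjusted p = 2e-05), while in CTR mice the difference of −0.56 (1.47-fold, SE 0.13, adjusted p = 0.0017) was under the fold threshold. It exceeded that threshold without CTR saline 2 (−0.61, adjusted p = 0.0011), CTR KA 1 (−0.62, adjusted p = 0.00081) or CTR KA 5 (−0.60, adjusted p = 0.0014). The 2 responses were not shown to differ (interaction −0.35, interval −0.73 to 0.02, adjusted p = 0.38).

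Dbp, the PAR bZIP factor with the strongest daily rhythm in many tissues, showed the largest change among the members, and it was alike in both genotypes. The saline mice had a lowest, median and highest log2 signal of 13.72, 13.99 and 14.26 in CTR and of 13.78, 14.13 and 14.36 in KO. After KA the CTR mice read 11.37, 11.08, 11.39, 10.13 and 12.40, and the KO mice 11.45, 10.96, 10.67, 12.61 and 11.22. Saline and KA mice were well apart, and the KA mice of both genotypes overlapped widely, with an SD of 0.81 in CTR and 0.74 in KO against 0.19 and 0.21 after saline. Dbp fell by 2.71 log2 units in CTR (6.55-fold, SE 0.29, adjusted p = 1.6e-07) and in KO mice (6.52-fold, adjusted p = 6.9e-07). The genotype difference after KA was 0.11 (interval −0.53 to 0.74) and the interaction 0.01 (interval −0.86 to 0.87), and a difference between the responses within that interval was not detectable with these arrays.

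Tef, a relative of Dbp with the same DNA motif, fell in CTR mice. Its saline signals ranged from 12.10 to 13.78 in CTR (median 13.29) and from 12.53 to 13.14 in KO (median 12.93), and the lowest CTR value was that of CTR saline 6. The CTR KA mice read 11.19, 11.99, 11.68, 10.43 and 11.49, and the KO KA mice 12.01, 12.10, 12.52, 12.75 and 11.52. All CTR KA mice were below all saline mice, whereas 1 KO KA mouse (12.75) lay within the range of KO saline mice. Tef fell by 1.81 log2 units in CTR mice (3.50-fold, SE 0.26, adjusted p = 1e-05), and the difference in KO mice was −0.72 (1.65-fold, SE 0.26, adjusted p = 0.077). After KA the KO mice were higher by 0.82 (adjusted p = 0.062), and the interaction was 1.09 (SE 0.37, adjusted p = 0.12).

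The calls on Tef in KO mice were close to the threshold. The KA difference in KO mice also passed with the mean over the Tef probes (−0.83, adjusted p = 0.00015), with array weights (−0.75, adjusted p = 0.0067), with only the compared groups in the fit (−0.72, adjusted p = 0.011), with normexp (−0.77, adjusted p = 0.035) and with the probes above the median signal alone (−0.72, adjusted p = 0.043), so that 6 members passed in KO mice in these settings in place of 5. Among the arrays, it passed without CTR saline 6 (−0.72, adjusted p = 0.032), CTR KA 4 (−0.72, adjusted p = 0.038), KO KA 4 (−0.87, adjusted p = 0.035) or the 3 arrays of lowest mean signal (−0.83, adjusted p = 0.035). The genotype difference after KA passed without CTR saline 6 (0.82, adjusted p = 0.024), CTR KA 2 (0.98, adjusted p = 0.026), KO KA 5 (0.99, adjusted p = 0.025) or the 3 arrays (0.82, adjusted p = 0.029). With only the KA groups in the fit, that difference did not pass (0.82, adjusted p = 0.17). Hlf, the remaining PAR bZIP member, had signals between 7.51 and 8.14 in all mice, and no comparison passed.

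Genotype alone made no detectable difference to the clock genes. After saline, 0 of 10 members passed limma's test, 0 had an unadjusted p under 0.05 and 0 passed Tukey's test, while 0.00493% of all genes passed, a share that is Srf itself. No member separated the saline groups, which 0.227% of all genes did, and the median absolute log2 difference was 0.06 for the members and for all genes. After KA, Per1 and Per2 were lower in KO mice, which is 2 of 10 members against 3.84% of all genes. In either direction 6.64% of all genes passed. In 3 members (Per1, Per2 and Cry2) the KO KA and CTR KA mice did not overlap, against 6.39% of genes. Only Per1 passed the test for an interaction, 1 of 10 members against 3.08% of genes. The median absolute difference between the genotypes after KA was 0.29 for the members and 0.12 for all genes.

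**Figure D3:**
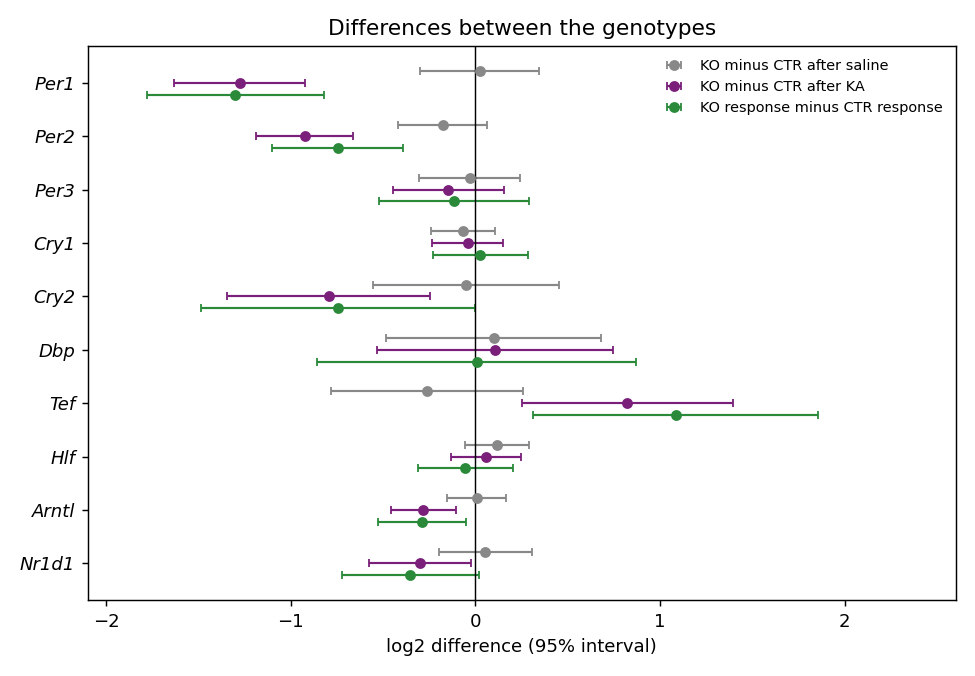
KO minus CTR log2 difference of each member (x axis) after saline and after KA, and the KO response minus the CTR response, with 95% intervals of the limma fit. After saline every interval includes 0. After KA, Per1 (−1.28) and Per2 (−0.92) lie farthest below 0, and Tef lies above it (0.82).

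Cell type markers moved with KA as well, and none passed the test between the genotypes after saline. After KA, KO mice were higher in C1ql2, Dsp, P2ry12, Fibcd1 and Grik4 and lower in Tdo2, Cck and Pecam1. No astrocyte, oligodendrocyte or choroid plexus marker passed there, where 6.64% of all genes did. The interaction passed for C1ql2, Dsp, Tdo2, Cck and Grik4, and for 3.08% of all genes. Among GABAergic interneuron markers, 4 of 9 rose after KA in CTR mice (Gad1, Gad2, Sst and Cck) and 0 of 9 in KO mice, and their mean log2 level ranged over 12.23 to 12.46 in CTR saline, 12.55 to 12.96 in CTR KA, 12.45 to 12.58 in KO saline and 12.38 to 12.67 in KO KA mice. Among astrocyte markers, 2 of 9 rose in CTR mice (Gfap and Sox9) and 1 of 9 in KO mice (Gfap), with mean levels of 13.46 to 13.71, 13.78 to 14.19, 13.53 to 13.77 and 13.59 to 13.79 in the same order. Of the granule cell markers, 8 of 10 were measured, of which 2 rose (Prox1 and Tdo2) and 3 fell (C1ql2, Dsp and Ntng1) after KA in CTR mice and 1 fell in KO mice (Ntng1), and their mean level was 10.37 to 10.52, 9.68 to 10.19, 10.26 to 10.37 and 10.04 to 10.33. Microglia markers gave 1 rise and 3 falls among 9 in CTR mice (Cx3cr1, Aif1 and P2ry12 fell) and 1 fall in KO mice, and endothelial markers 1 rise and 2 falls among 6 in CTR mice and no call in KO mice. Of all genes, 9.15% rose and 8.98% fell in CTR mice, and 4.33% rose and 4.5% fell in KO mice. No pyramidal or mossy cell, oligodendrocyte or choroid plexus marker passed after KA in CTR mice. In KO mice Fibcd1 and Grik4 rose and Cnp fell. Mean choroid plexus levels varied widely within groups (9.96 to 11.11, 9.22 to 12.84, 9.37 to 13.3 and 8.90 to 13.22 in the same order). The part of these differences in the values of Per1, Per2, Tef and the other members was not tested.

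Several members had more than 1 probe. The further Per1 probe (ILMN_2813487) gave the same pattern as the main one (ILMN_2813484), with KA differences of 1.22 in CTR and −0.21 in KO mice and an interaction of −1.43 (adjusted p = 0.00064). The Per2 probe ILMN_2987863 rose by 2.35 and 1.42 and its interaction of −0.93 passed (adjusted p = 0.0094), in contrast to the main probe (ILMN_2987862). The third Per2 probe (ILMN_1258523) was near the floor, with a rise of 0.68 in CTR mice and a difference of 0.19 in KO mice. The probes of Tef disagreed. The brighter one (ILMN_2676052) is described above, and a dimmer one listed for another Tef transcript (ILMN_2715400) fell in both genotypes, by 0.84 in CTR (SE 0.13, adjusted p = 3.3e-05) and by 0.94 in KO mice (SE 0.13, adjusted p = 2.3e-05), with an interaction of −0.11 (interval −0.50 to 0.28). Between the genotypes after KA, the dimmer Tef probe showed no detectable difference (−0.05, interval −0.34 to 0.24, adjusted p = 0.90). The second Cry2 probe (ILMN_1256483) was near the floor and passed no test.

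**Figure D4:**
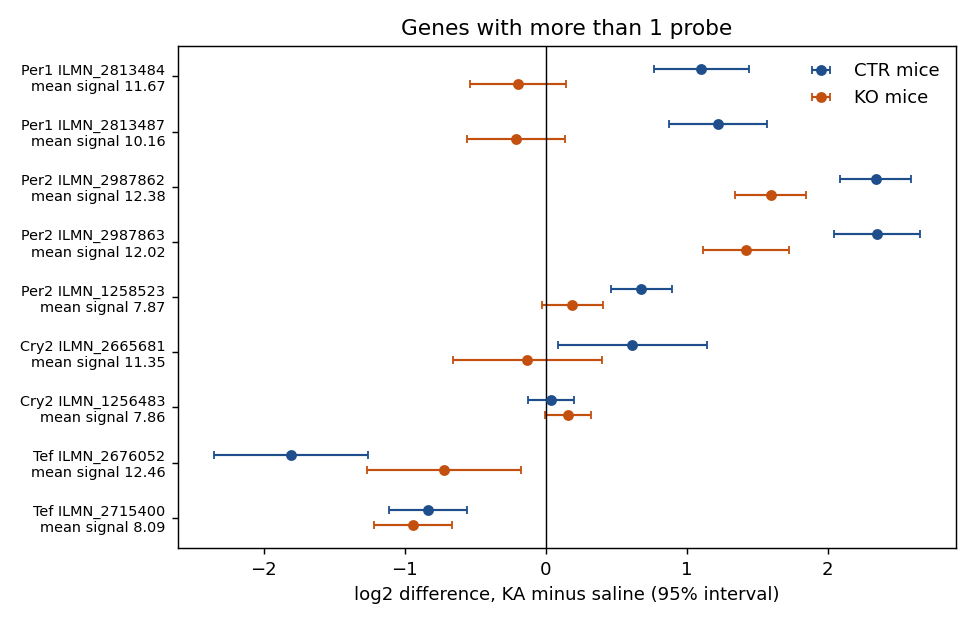
Log2 difference between KA and saline mice (x axis) for each probe of the 4 members with more than 1 probe, in CTR and KO mice, with 95% intervals and the mean signal of the probe. Both Per1 probes are near 0 in KO mice (−0.20 and −0.21), and the Tef probes give −0.72 and −0.94 there.

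Clock genes outside the 10 members also responded. Of 32 genes in 3 lists (partners and further transcription factors, kinases and ubiquitin pathway enzymes, and output genes), 28 were measured. After KA, 7 of 28 rose and 2 fell in CTR mice, against 9.15% and 8.98% of all genes, and 2 rose and 5 fell in KO mice, against 4.33% and 4.5%. After saline, 0 of 28 passed limma's or Tukey's test and 0 had an unadjusted p under 0.05. After KA, KO mice were lower in 6 and higher in 1, against 6.64% of all genes in either direction, and 2 of 28 passed the test for an interaction, against 3.08%.

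Partners of the members moved with them. Clock, the usual partner of ARNTL, rose by 0.87 in CTR (adjusted p = 6e-09) and by 0.70 in KO mice (adjusted p = 6.1e-07), next to the rise of Arntl, although the mean over its probes stayed under 1.5-fold (0.48 and 0.29). Its CTR mice went from 11.63 to 11.93 after saline to 12.47 to 12.83 after KA, and its KO mice from 11.61 to 11.85 to 12.43 to 12.58, without overlap. Npas2, the alternative partner, rose by 1.67 in CTR (adjusted p = 6.9e-08) and by 0.74 in KO mice (adjusted p = 0.0041), and KO KA mice were lower by −0.78 (adjusted p = 0.0049), with an interaction of −0.93 that did not pass (adjusted p = 0.026). Nr1d2, the paralog of Nr1d1, fell by 1.51 and 1.17 (adjusted p = 0.00013 and 0.0040), and was not detectably different between the genotypes after KA (0.29, adjusted p = 0.68).

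Other factors passed in a single genotype. Rorb, a nuclear receptor that activates at ROR elements, rose by 0.78 in CTR mice (adjusted p = 0.00098), had a difference of −0.09 in KO mice and was lower in KO than CTR mice after KA (−0.83, adjusted p = 0.0026). Ciart, a repressor that acts on the ARNTL pair, fell in KO mice (−1.28, adjusted p = 0.0015) and had a difference of −0.19 in CTR mice, whose KA signals were spread from 9.0 to 11.46, and KO KA mice were lower than CTR KA mice by −1.16 (adjusted p = 0.0068). Usp2, a deubiquitinase of clock proteins, did likewise, with −0.76 in KO (adjusted p = 0.0085), −0.15 in CTR mice and −0.69 between the genotypes after KA (adjusted p = 0.029). The interactions of these 3 genes did not pass (adjusted p = 0.037, 0.11 and 0.28), so that their responses were not shown to differ between the genotypes, although that of Rorb passed with array weights (−0.97, adjusted p = 0.0029) and without CTR KA 1 (−1.07, adjusted p = 0.00052). With only the KA groups in the fit, the genotype differences of Rorb, Ciart and Usp2 lost their calls (adjusted p = 0.082, 0.11 and 0.23). That of Usp2 was also lost without CTR KA 1, CTR KA 5, KO KA 1, KO KA 2 or KO KA 4 (−0.45 to −0.71, adjusted p = 0.051 to 0.086), and its fall in KO mice was lost without the 3 arrays of lowest mean signal (adjusted p = 0.056) and with the mean over its probes (−0.36, adjusted p = 0.087).

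Among kinases and outputs, 2 genes passed the test for an interaction, and neither did so in every setting. Prok2, which encodes a secreted output signal of the central clock, rose by 1.04 in CTR mice (adjusted p = 7.8e-07), where its KA mice (8.07 to 9.02) stood above the saline mice (7.40 to 7.75), and had a difference of 0.05 in KO mice, with an interaction of −1.0 (adjusted p = 0.0014). Its probe was near the floor, with 48.9% of probes dimmer, and a filter on dim probes removed it. Csnk1e, a kinase that phosphorylates PER proteins, fell by 0.66 in CTR mice (adjusted p = 9.6e-07) and had a difference of −0.08 in KO mice, with an interaction of 0.58 (adjusted p = 0.0032) that was lost with normexp (0.63, adjusted p = 0.015) and without the 3 arrays of lowest mean signal (0.53, adjusted p = 0.024). Csnk1e was named after its values were seen, to account for both genes of that count. Its paralog Csnk1d rose by 0.75 in CTR mice (adjusted p = 5.6e-05), and its difference of 0.37 in KO mice stayed under 1.5-fold. The mean over the Csnk1d probes gave an interaction of −0.75 (adjusted p = 0.0015).

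**Figure D5:**
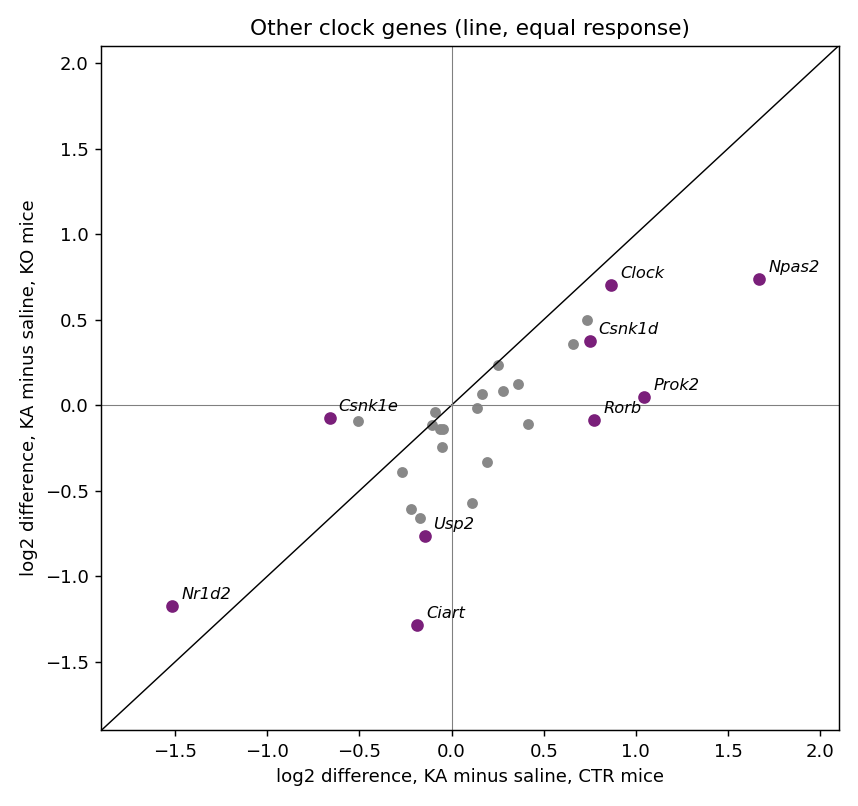
Log2 difference between KA and saline in CTR mice (x axis) against that in KO mice (y axis) for the 28 other clock genes, with a line of equal response and the genes described in the text in colour. Clock (0.87 and 0.70) and Nr1d2 (−1.51 and −1.17) lie near the line, and Prok2 (1.04 and 0.05) and Csnk1e (−0.66 and −0.08) lie near the x axis.

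Finally, it was asked whether members varied together between mice of the same group. Deviations from the group means were correlated over the 22 mice for the 45 pairs of members, with 100000 permutations within the groups. No pair passed after Benjamini-Hochberg adjustment. The strongest was Dbp with Arntl (Pearson's r = −0.67, permutation p = 0.0018, adjusted p = 0.082, and Spearman's rho = −0.63, permutation p = 0.0073, adjusted p = 0.25), and r was −0.62 without the 2 mice farthest from the median of Dbp, −0.70 in the 12 saline mice and −0.74 in the 10 KA mice. Per1 and Dbp had r = −0.56 (permutation p = 0.028, adjusted p = 0.32, and rho = −0.21, permutation p = 0.38, adjusted p = 0.64), which became −0.13 without the 2 farthest mice and therefore rests on them. Described in the same way over 12605 genes, the genes whose deviations were most like those of Dbp were Glb1 (r = 0.91), Sytl2 (0.88) and Ilvbl (0.87), and those most like Per2 were Sdcbp2 (0.78), Wdr37 (0.77) and KIF17 (0.73). These are the highest of 12605 values for each member, and they were not tested.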

How the data were processed

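Per the labels and the study's methods, total RNA of microdissected dentate gyri was amplified, labelled with biotin and hybridised to Illumina MouseWG-6 v2.0 BeadChips, and the authors subtracted the background, normalised by quantiles and deposited log2 signals, which were used for every result. A second deposited table holds linear intensity values that are already quantile-normalised. Of its 22 column headers only 6 named the sample whose log2 values they matched best, and 14 matched a sample of another group best. Which order is right is not settled by the files, except that the log2 table's labels fit the level of Srf, and the intensity table served for that check alone. The number of arrays limits the precision.

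A model of the 4 group means was fitted to 46237 probes and 22 arrays with limma 3.58.1 in R 4.3.3, with Benjamini-Hochberg adjustment over all probes, and tested on simulated data. Group differences were called at adjusted p under 0.05 and over 1.5-fold, and interactions at adjusted p under 0.01. Intervals are at 95%. Symbols came from the platform annotation (35784 probes with a symbol, 10453 without) and were updated through RefSeq. A probe listed only under an old symbol resembling Per1 was not counted. Correlations used Python 3.11.15.

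The 10 members and all gene lists were chosen with earlier results of these data known. All members, at most 8 other clock genes (those called with the largest differences, and always Clock, Npas2 and Nr1d2), Srf, and the 3 genes most like the members with the largest rise and fall were named, and Csnk1e beyond that rule. The mice of a group are separate animals. Alternatives comprised other background corrections, filters, weights, probes, thresholds and tests, a replicate block and leaving out arrays.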

Additional observations from a re-analysis of the deposited data

Results flagged for a closer look

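The response of Per1 to KA differed between the genotypes by the test of the difference itself (KO response minus CTR response −1.30 on the log2 scale, adjusted p = 0.0013). In 3 of 40 member groups a single array lay far from the others, and chance gives about 1 in 20. The Cry2 signal of CTR saline 6 was 10.46, with the nearest array at 11.27. That array also had the lowest mean signal of all arrays. The Hlf signal of CTR saline 1 was 7.63 (nearest 7.74), near the floor, and the Arntl signal of CTR saline 2 was 10.95 (nearest 10.74).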

How the results depend on the processing

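None of the 50 member differences changed sign while called. Members different between KO and CTR mice after KA numbered 4 in place of 2 when only probes with a mean signal above the median entered, with a replicate block, and without the 3 arrays of lowest mean signal (chosen after seeing the data), and 2 to 4 when each array was left out in turn. Cry2 and Tef were the genes gained. Members with an interaction numbered 2 in place of 1 with that filter, with array weights, with the mean over all probes of a gene and at adjusted p under 0.05, and 1 to 2 with each array left out, Per2 being the gene gained. Leaving out CTR saline 6 gave the 4, and leaving out CTR KA 1 or KO KA 5 the 2. Other clock genes with an interaction numbered 1 in place of 2 with normexp on the deposited signals (chosen after seeing the data), with the filter and without the 3 arrays (Prok2 lost to the filter, Csnk1e in the others), and 4 at adjusted p under 0.05. Other clock genes different between the genotypes after KA numbered 3 in place of 7 when only the compared groups entered the fit, and those changed by KA in KO mice 3 in place of 7 with the mean over all probes. Correlated pairs numbered 1 in place of 0 with normexp or with the median deviation of each array removed, and 0 to 2 with each array left out (2 without CTR KA 1, 1 without CTR KA 2). In some of these settings fewer probes or arrays entered, and the cause of these shifts was not tested.

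The labels do not say what a replicate number marks. Over 31 same-numbered pairs the correlation of deviations ran from −0.31 to 0.40, with a median of 0.13 (−0.016 for other numbers) and 18 pairs over 0.1, and 2 of 22 arrays correlated best with their own number. As not every pair was over 0.1, the mice were not treated as paired. With the replicate block, Tef passed in KO mice (−0.84, adjusted p = 0.032) and after KA (0.82, adjusted p = 0.046), as did Cry2 after KA (−0.80, adjusted p = 0.016), and no other member's call changed. The corrections that need signals before normalization and the BeadChip as a block were not run, since neither such signals under settled headers nor chip names were at hand. Detection p-values were not used here, so the filter took the mean signal. Near-floor signals limit Cry1, Hlf and the dim probes.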
